A study of Bos taurus with 9 samples.

Results

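The integrated stress response genes described here are *ATF4*, *ATF3*, *DDIT3*, *ASNS*, *TRIB3*, *CHAC1*, *SESN2*, *DDIT4* and *PPP1R15A*, 9 of the 28786 genes in the read count table of bovine liver. They were taken by symbol as *ATF4* and well known members of its programme, and the rule for them uses no measured value, although earlier results of these data were known when they were chosen. All 9 had counts in every cow, and all 9 were among the 15073 genes that passed the filter on low counts over the 9 libraries. Liver biopsies were taken near the end of the exposure from lactating Holstein dairy cows, all acclimated at thermoneutrality before they were allocated. The cows were then kept at thermoneutrality (TN), under heat stress (HS), or at thermoneutrality while pair-fed to the feed intake of the HS cows (PF). Each group held 3 cows with 1 poly-A-selected RNA-seq library each, so n = 3 in each group. The p-values of the group comparisons weigh a difference against the spread between cows, estimated with information shared across genes. The HS and PF comparison addresses heat at a matched intake, and the PF and TN comparison addresses the lower intake without heat. By the paper, average days in milk also differed between the groups, lowest in TN and highest in PF cows. What this contributes was not tested.

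In the integrated stress response, kinases that sense amino acid lack, unfolded protein in the endoplasmic reticulum (ER), double-stranded RNA or heme lack phosphorylate the translation factor eIF2 on its alpha subunit. General translation is then lowered while translation of *ATF4* mRNA is favoured, and the ATF4 protein turns on genes of amino acid supply, redox balance, growth control and, through DDIT3, cell death. Control of ATF4 lies largely at translation, which mRNA counts do not measure. In liver the pathway is known to respond to changes in protein and amino acid supply and to ER load.

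The libraries held between 16874444 and 22557047 counts, and a gene with 0 counts may have had up to 3 counts, which is 0.111 to 0.202 CPM (counts scaled to the TMM-normalized size of each library), for counting error only. TN replicate 1 stood apart. Its summed level of 8 hepatocyte markers was 14927 CPM, against 56080 to 121759 CPM in the other 8 cows. Most of the sum is *ALB*, at 8762 CPM in this cow. *ALB*, *TTR*, *SERPINA1*, *TF* and *AHSG* were lowest in this cow, while *APOA1* (841 CPM), *APOB* (973 CPM) and *HP* (14.6 CPM) were not. The 5 markers of skeletal muscle and skin summed to at most 0.309 CPM in any cow, with *ACTA1* and *MYH1* at 0 in all groups. Summed immune cell markers were 286 to 505 CPM in TN, 445 to 643 in PF and 520 to 862 in HS cows, and summed erythroid markers were 3.39 to 22.3, 0 to 2.29 and 0.336 to 1.33 CPM. The 8 immune cell markers did not move together, with 6 above 0 and 2 below 0 in HS against TN. *MARCO* had a mean of 73.8 CPM in TN and 203 CPM in HS cows, whereas *PTPRC* had 60.8 and 50.2 CPM and *CD3E* 22.3 and 16.2 CPM. Cholangiocyte markers summed to 19.0 to 100.9 CPM, and endothelial and stellate markers to 463 to 734 CPM, over the 9 cows. The mitochondrial share of counts was 13.6% to 22.2% in TN, 6.90% to 7.79% in PF and 3.84% to 5.68% in HS cows. What these differences contribute to the values of the 9 genes was not tested. In a biopsy, fewer cells of a type and less RNA per cell cannot be told apart.

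No integrated stress response gene passed the test in HS cows against TN cows. *ATF4* had 201 ± 56.2 CPM in TN and 147 ± 12.4 CPM in HS cows (SD, n = 3), and *DDIT4*, an mTORC1 inhibitor, had 69.8 ± 46.6 and 35.9 ± 13.9 CPM. The log2 fold change of *DDIT4* was the largest in size of the 8 (-0.99), but without TN replicate 1 it was -0.26, smaller in size than those of *ATF4* (-0.63), *PPP1R15A* (-0.42) and *ASNS* (-0.31). *SESN2*, another inhibitor of that kinase complex, was among the closest, with 9.60 ± 1.31 and 9.47 ± 1.39 CPM. A gene was called when the quasi-likelihood F test of edgeR gave an FDR under 0.1, adjusted by Benjamini-Hochberg over the whole table, and the fold change was over 1.5. Of the 8 members tested, 0 were called, against 0.0892% of all genes tested (13 of 14582), and 0 had an unadjusted p under 0.05, against 9.36% of all genes. DESeq2 also called 0 members, against 1.75% of the genes it tested. The members' adjusted p ranged from 0.526 to 0.967 (edgeR). Of the 8, 1 had a log2 fold change above 0, against 49.3% of all genes, and their median was -0.32, where the median of all genes tested was -0.01. In no member did the 3 HS cows lie apart from the 3 TN cows, against 16.1% of all genes. *CHAC1* did not pass the filter on low counts in these 6 libraries, and without the filter its log2 fold change was 0.10.

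Against PF cows, HS cows had 0 of 9 members called by edgeR, where 0.0276% of all genes were called (4 of 14510), and 0 by DESeq2, where 0.771% were. An unadjusted p under 0.05 was found for 1 member, *SESN2*, where 5.31% of all genes had one. The HS cows lay wholly above the PF cows for 2 members, *DDIT3* and *SESN2*, against 5.95% of all genes. Log2 fold changes were above 0 for 6 of the 9, against 50.9% of all genes, and their median was 0.30, where that of all genes was 0.01.

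In PF cows against TN cows, edgeR called 0 of 9 members and 0% of all 14580 genes, of which 6.88% (1003) had an unadjusted p under 0.05. The members with an unadjusted p under 0.05 were *DDIT3*, *SESN2* and *DDIT4*, all 3 lower in PF, against 3.89% of all genes with such a p and a lower level in PF. The same 3 genes were those in which every PF cow lay below every TN cow, against 6.37% of all genes. DESeq2 called 1 member, *DDIT4*, and 0.555% of the genes it tested. Log2 fold changes were above 0 for 2 of the 9, against 48.8% of all genes, and their median was -0.35, where that of all genes was -0.01. Each group serves in 2 of the 3 comparisons, which are therefore not independent of each other. Without TN replicate 1, edgeR likewise called 0 members in HS against TN and in PF against TN, and in HS against TN 1 member, *ATF4*, then had an unadjusted p under 0.05 (log2 fold change -0.63; edgeR, adjusted p = 0.724).

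**Figure D1:**
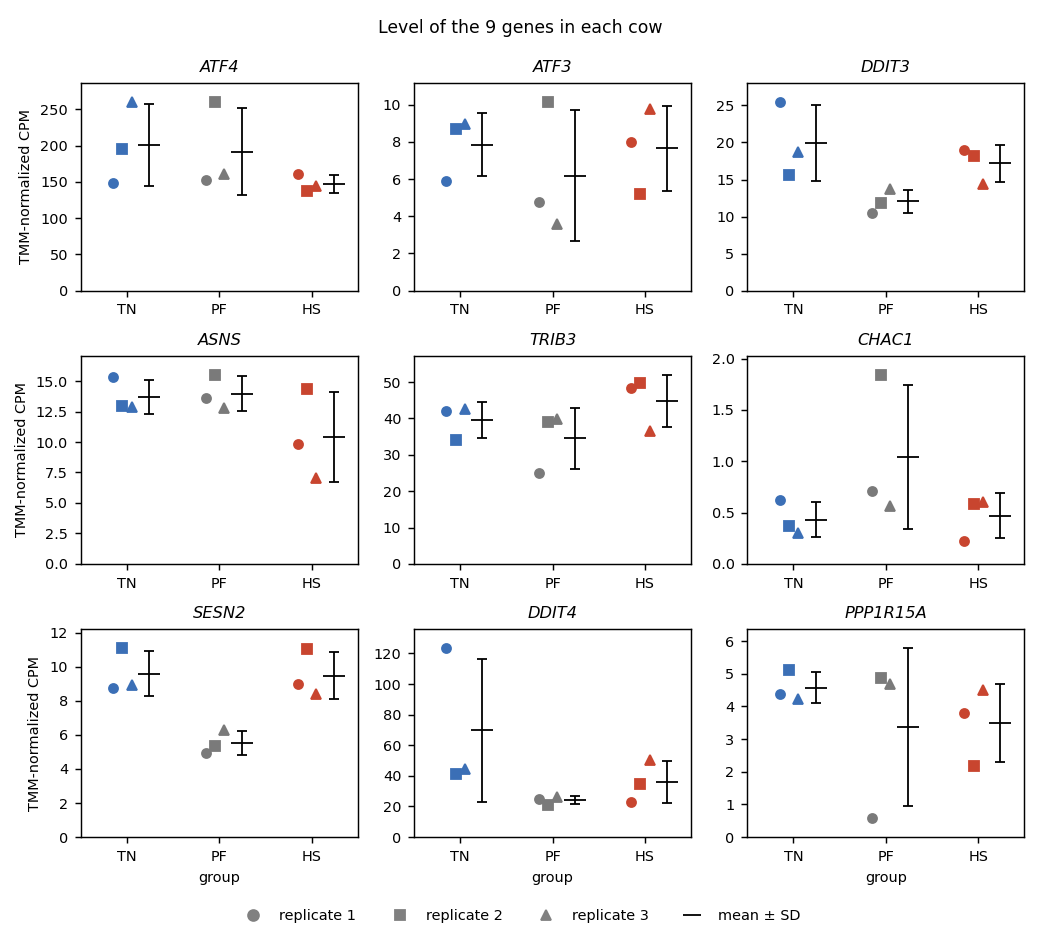
TMM-normalized CPM of each of the 9 genes in each cow, by group; points are cows, with the symbol showing the replicate number, and the bar with whiskers is the mean ± SD of n = 3 cows. Every axis starts at 0. PF cows lie below all other cows for DDIT3 and SESN2, and TN replicate 1 lies at 123.6 CPM for DDIT4, far above the other 8 cows.

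A test of all 3 groups together also called 0 members, where 7 of 15073 genes (0.0464%) had an FDR under 0.1. An unadjusted p under 0.05 was found for 3 members, against 7.86% of all genes, and these were *DDIT4* (adjusted p = 0.420), *SESN2* (adjusted p = 0.530) and *DDIT3* (adjusted p = 0.605, edgeR, Benjamini-Hochberg). With its likelihood ratio test, DESeq2 called *DDIT4* (adjusted p = 0.0535). The share of all genes that this test called is not given here. Neither test of 3 groups set a fold change threshold. Without TN replicate 1, the DESeq2 test called 0 members and 197 genes. The levels by cow (the plot of the 9 genes in each cow) show how each of these values came about.

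*ATF4*, the transcription factor that gives the programme its name, had 147.7, 194.9 and 259.6 CPM in TN replicates 1 to 3, 152.7, 260.6 and 160.9 CPM in PF replicates 1 to 3, and 161.2, 137.0 and 144.1 CPM in HS replicates 1 to 3. The HS cows lay close together (147 ± 12.4 CPM), while TN cows (201 ± 56.2) and PF cows (191 ± 60.1) spread more widely, and HS replicate 1 was the only HS cow within the range of either. The log2 fold change was -0.46 in HS against TN (SE 0.29, 95% interval -1.10 to 0.19, edgeR, adjusted p = 0.608). This interval runs from 0.466-fold to 1.14-fold of the TN level. Against PF, HS had a log2 fold change of -0.38 (SE 0.28), and PF against TN had -0.07 (SE 0.34). The order of the means was TN, PF, HS, with no neighbours apart beyond the spread of the cows.

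*ATF3*, a stress-induced factor that acts beside ATF4, had 5.90, 8.70 and 8.94 CPM in TN, 4.79, 10.2 and 3.57 CPM in PF, and 7.97, 5.20 and 9.75 CPM in HS replicates 1 to 3. PF cows held both the highest and the lowest value. The log2 fold changes were -0.05 (SE 0.31) in HS against TN, 0.30 (SE 0.41) in HS against PF and -0.35 (SE 0.41) in PF against TN.

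*DDIT3* encodes CHOP, the factor linked to cell death under lasting ER stress. It had 25.5, 15.6 and 18.7 CPM in TN, 10.5, 11.9 and 13.7 CPM in PF, and 19.0, 18.1 and 14.4 CPM in HS replicates 1 to 3. The PF cows were the 3 lowest of the 9, whereas TN and HS cows overlapped. In PF against TN the log2 fold change was -0.73 (SE 0.27, 95% interval -1.33 to -0.13; edgeR, adjusted p = 0.708), and in HS against PF it was 0.51 (SE 0.24, 95% interval -0.01 to 1.03; edgeR, adjusted p = 0.948). TN replicate 1 held the highest value, and without it PF against TN gave -0.50 (edgeR, adjusted p = 1.00) and HS against TN moved from -0.24 to 0.00. *DDIT3* overlaps *MARS1* and *LOC132345297* in RefSeq on ARS-UCD2.0 (the counts are on ARS-UCD1.2), and the strand setting of the counting is not given in the sources used here. *MARS*, the methionyl-tRNA synthetase gene as the count table names it, had log2 fold changes of 0.15 in PF against TN and -0.31 in HS against PF.

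*ASNS*, asparagine synthetase, the amino acid synthesis enzyme most often used to read out ATF4, had 15.3, 12.96 and 12.9 CPM in TN, 13.6, 15.5 and 12.8 CPM in PF, and 9.85, 14.4 and 7.06 CPM in HS replicates 1 to 3. HS replicates 1 and 3 were the 2 lowest cows, while HS replicate 2 lay among the other groups. The log2 fold change was -0.42 (SE 0.29) both in HS against TN and in HS against PF (edgeR, adjusted p = 0.636 and 1.00), and 0.02 (SE 0.25) in PF against TN, with an interval of 0.698-fold to 1.48-fold. 

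*CHAC1*, which encodes a glutathione-degrading enzyme, was the member with the fewest reads, 5 to 33 counts a cow. It had 0.626, 0.370 and 0.298 CPM in TN, 0.710, 1.84 and 0.560 CPM in PF, and 0.221, 0.584 and 0.605 CPM in HS replicates 1 to 3. PF replicate 2 stood above the other 8 cows. At the 5 counts of TN replicate 3 the exact Poisson interval was 0.0967 to 0.695 CPM, which spans the values of 7 of the 9 cows. The log2 fold change was 1.23 (SE 0.86) in PF against TN and 0.54 without PF replicate 2, and it was -1.17 (SE 0.78) in HS against PF and -0.45 without that cow.

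*TRIB3*, a pseudokinase that restrains AKT and ATF4 itself, had 42.0, 33.9 and 42.7 CPM in TN, 24.9, 38.9 and 39.9 CPM in PF, and 48.3, 49.6 and 36.6 CPM in HS replicates 1 to 3. It was the member whose mean was highest in HS (44.8 ± 7.18 CPM), above TN (39.5 ± 4.86) and PF (34.6 ± 8.38), and the groups overlapped. Its log2 fold changes were 0.16 (SE 0.22) in HS against TN and 0.37 (SE 0.25) in HS against PF.

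*SESN2* encodes sestrin 2, a leucine sensor that holds back the growth kinase complex mTORC1. It had 8.76, 11.1 and 8.94 CPM in TN, 4.91, 5.36 and 6.26 CPM in PF, and 8.97, 11.04 and 8.41 CPM in HS replicates 1 to 3. Every PF cow lay below every TN and every HS cow, and TN (9.60 ± 1.31 CPM) and HS (9.47 ± 1.39 CPM) overlapped. The log2 fold change was -0.80 in PF against TN (SE 0.30, 95% interval -1.45 to -0.15; edgeR, adjusted p = 0.705) and 0.78 in HS against PF (SE 0.28, 95% interval 0.16 to 1.39; edgeR, adjusted p = 0.755). In HS against TN it was -0.04 (SE 0.24), with an interval of 0.667-fold to 1.43-fold. Leaving out each cow in turn kept PF against TN between -0.90 and -0.68 and HS against PF between 0.65 and 0.87. The PF cows enter both differences, so these are not separate evidence.

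*DDIT4* encodes REDD1, which also restrains mTORC1 and responds to hypoxia and glucocorticoids as well as to ATF4. It had 123.6, 41.3 and 44.5 CPM in TN, 24.7, 21.3 and 26.2 CPM in PF, and 22.8, 34.5 and 50.5 CPM in HS replicates 1 to 3. All 3 PF cows lay below all 3 TN cows, HS cows spanned the gap between them, and TN replicate 1 was far above the rest. In PF against TN the log2 fold change was -1.54 (SE 0.40, 95% interval -2.42 to -0.66; edgeR, adjusted p = 0.615), which placed it at rank 58 of 14580 genes by p. DESeq2 gave the same log2 fold change with an adjusted p of 0.0397, and edgeR without the filter on low counts gave -1.52 with an adjusted p of 0.0106, so the call depends on the tool and the filter. Without TN replicate 1, the cow with the low sum of hepatocyte markers, the log2 fold change in PF against TN was -0.83 (edgeR, adjusted p = 0.923), and neither DESeq2 (adjusted p = 0.392) nor edgeR without the filter (adjusted p = 0.393) called it. In HS against TN, the log2 fold change of -0.99 (SE 0.46, 95% interval -2.02 to 0.04; edgeR, adjusted p = 0.526) became -0.26 without the same cow (adjusted p = 0.911).

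*PPP1R15A* encodes GADD34, the subunit that directs a phosphatase to eIF2alpha and so closes the response. It had 4.38, 5.12 and 4.23 CPM in TN, 0.592, 4.86 and 4.69 CPM in PF, and 3.80, 2.16 and 4.51 CPM in HS replicates 1 to 3. PF replicate 1, with 10 counts, was far below the other cows, and the remaining 8 lay between 2.16 and 5.12 CPM. The log2 fold changes were -0.41 (SE 0.38) in HS against TN, 0.04 (SE 0.63) in HS against PF and -0.44 (SE 0.61) in PF against TN.

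**Figure D2:**
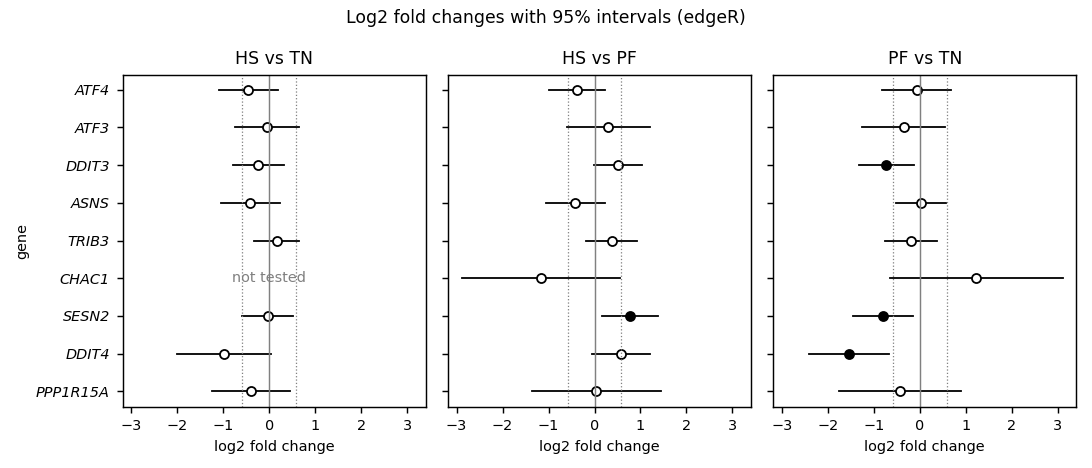
Log2 fold changes of the 9 genes (edgeR, circles) with 95% intervals (lines) in the 3 comparisons; filled circles have an unadjusted p under 0.05, and dotted lines mark a 1.5-fold change in either direction. The filled circles are SESN2 in HS vs PF (0.78) and DDIT3 (-0.73), SESN2 (-0.80) and DDIT4 (-1.54) in PF vs TN; none passed the adjusted threshold.

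The cows did not line up over the members. PF replicate 1 had the lowest value of the 9 cows for 4 members and PF replicate 2 the highest value for 4 members (*ATF4*, *ATF3*, *ASNS* and *CHAC1*), though both were in the same group. The plot of the fold changes shows the intervals, which in both comparisons with PF cows were widest for *CHAC1* and *PPP1R15A*, the 2 members with the lowest counts.

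Across the 9 cows the other 8 members were compared with *ATF4* on the log2(CPM + 0.5) scale by exact two-sided permutation tests, 8 relations in all. Pearson's r was highest for *ATF3* (r = 0.560, exact permutation p = 0.124; Spearman's rho = 0.467, p = 0.213) and lowest for *DDIT4* (r = -0.240, exact permutation p = 0.540; rho = -0.433, p = 0.250). For *ASNS* it was 0.304 (exact permutation p = 0.458; rho = 0.117, p = 0.776), and for *TRIB3* 0.01 (exact permutation p = 0.990; rho = -0.150, p = 0.708). The 8 Benjamini-Hochberg adjusted p ranged from 0.737 to 0.990, so none passed. With each value taken as its deviation from its group mean, *ATF3* had r = 0.790 (exact permutation p = 0.0463, adjusted p = 0.278) and *DDIT4* r = -0.636 (exact permutation p = 0.0694, adjusted p = 0.278). Without the 2 cows farthest from the median of *ATF4* (TN replicate 3 and PF replicate 2), *ATF3* had r = 0.252 (exact permutation p = 0.617) and *CHAC1* turned from 0.259 to -0.557. Leaving out these cows also narrows the range of *ATF4*. Without TN replicate 3 alone *ATF3* had r = 0.514 (exact permutation p = 0.192), and without PF replicate 2 alone r = 0.430 (exact permutation p = 0.312). This was the lowest r of *ATF3* with 1 cow left out, and the highest was 0.751, without HS replicate 3 (exact permutation p = 0.0332, adjusted p = 0.265).

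**Figure D3:**
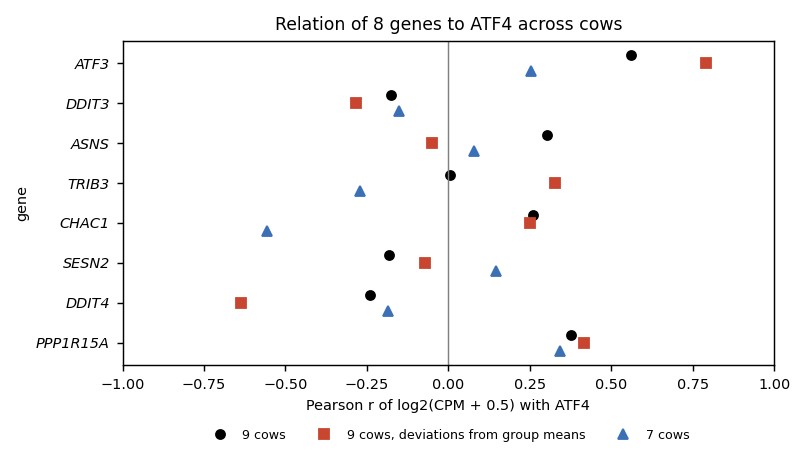
Pearson r of each of the other 8 genes with ATF4 on the log2(CPM + 0.5) scale, over 9 cows (circles), over deviations from the group means (squares) and over 7 cows, without TN replicate 3 and PF replicate 2 (triangles). ATF3 has the highest r over 9 cows (0.560) and falls to 0.252 over 7 cows.

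Of the 15064 other genes, those with a pattern most like *ATF4* over the 9 libraries were *LOC526041* (r = 0.971), *ZNF691* (0.931), *DAXX* (0.919), *SOAT1* (0.917), *MAP1LC3A* (0.914), *TKT* (0.909), *SPC24* (0.908), *ABCB6* (0.897), *CD27* (0.896) and *INSIG1* (0.892). No member was among these 10. These r are a description over libraries that share their depth and composition, and r over all genes had a median of 0.01 with a 5th to 95th percentile range of -0.54 to 0.52. *INSIG1*, a regulator of sterol synthesis, was at 589.8 and 632.4 CPM in TN replicate 3 and PF replicate 2, the cows highest for *ATF4*, and at 177 to 434 CPM in the other 7. *TKT*, transketolase of the pentose phosphate pathway, was at 216 and 234 CPM in those cows and at 49.7 to 110.7 CPM in the others.

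Upstream of ATF4, 0 of 4 sensor kinases and 0 of 11 genes of eIF2, eIF2B and the eIF2alpha phosphatases were called in any comparison. *EIF2AK2*, the kinase that senses double-stranded RNA, had a log2 fold change of 0.51 (SE 0.31) in HS against TN, and *EIF2AK3*, which encodes the ER kinase PERK, had 0.27 (SE 0.25). *EIF2S3*, the gamma subunit of eIF2, had 61.8 ± 22.2 CPM in TN, 99.6 ± 9.91 in PF cows and 102.5 ± 8.35 in HS cows (HS against TN 0.72, SE 0.29; edgeR, adjusted p = 0.503). *EIF2B2*, a subunit of the exchange factor eIF2B, had a log2 fold change of -0.31 (SE 0.21) in HS against TN. These are mRNA levels and say nothing of the phosphorylation of eIF2alpha.

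Among 8 partner factors of ATF4, edgeR called 0 in each comparison, and DESeq2 called 1, *ATF5*, lower in HS than in TN (adjusted p = 0.0906). In that comparison DESeq2 called 1.75% of the genes it tested. The paper, which also used DESeq2, had already listed *ATF5* as lower in HS. *ATF5* is a close relative of *ATF4* that is likewise controlled at translation. It had 409 ± 91.0 CPM in TN, 357 ± 32.0 in PF cows and 221 ± 39.5 in HS cows, and HS cows lay below all TN and all PF cows. The log2 fold change was -0.90 (SE 0.31; edgeR, adjusted p = 0.462) against TN and -0.69 (SE 0.26; edgeR, adjusted p = 0.795) against PF. *CEBPB*, which pairs with ATF4, had 43.8 ± 4.16 CPM in TN and 67.1 ± 7.50 in HS cows (log2 fold change 0.60, SE 0.21; edgeR, adjusted p = 0.458).

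Of the 16 tested genes of amino acid synthesis and transport, edgeR called 0 in each comparison. Their median log2 fold change was 0.23 in HS against TN, -0.14 in HS against PF and 0.23 in PF against TN. *PHGDH*, the entry enzyme of serine synthesis, had 71.4 ± 25.4 CPM in TN, 166.9 ± 42.6 in PF cows and 134.4 ± 24.1 in HS cows. Its log2 fold change was 1.22 in PF against TN (SE 0.35; edgeR, adjusted p = 0.693), which DESeq2 called (adjusted p = 0.0533), and 0.90 in HS against TN (SE 0.31; edgeR, adjusted p = 0.458). The paper had already named *PHGDH* as upregulated in PF cows. *ALDH18A1*, an enzyme of proline synthesis, had 0.80 in HS against TN (SE 0.22; edgeR, adjusted p = 0.377). The 13 aminoacyl-tRNA synthetases also had 0 called, with medians of 0.15, -0.05 and 0.21, and *AARS* had 0.47 (SE 0.24) and *WARS* -0.56 (SE 0.32) in HS against TN.

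Of 17 other tested targets of ATF4 or DDIT3, edgeR called 0 in each comparison, with medians of 0.27 in HS against TN, 0.02 in HS against PF and 0.23 in PF against TN. *TNFRSF10D*, a receptor of the death ligand TRAIL, had -0.98 (SE 0.32; edgeR, adjusted p = 0.448) and *EIF4EBP1*, a brake on translation, had 0.97 (SE 0.32; edgeR, adjusted p = 0.456) in HS against TN. *FGF21*, a liver hormone of fasting and protein lack, was picked after its values were seen. It had 0, 3 and 54 counts in TN, 24, 510 and 201 counts in PF, and 26, 44 and 0 counts in HS replicates 1 to 3. The highest cow was PF replicate 2, also the highest for *ATF4*, and TN and PF cows overlapped (PF against TN log2 fold change 3.59, SE 1.22; edgeR, adjusted p = 0.697). In HS against PF the log2 fold change was -3.49 (SE 1.06; edgeR, adjusted p = 0.625), and HS and PF cows overlapped too. These values moved with single cows. PF against TN was 7.27 without TN replicate 3, which held 54 of the TN counts, and 2.38 without PF replicate 2, and HS against PF was -2.30 without PF replicate 2. Without the filter on low counts, edgeR called 1 gene of this list in PF against TN and 1 in HS against PF. Over all genes, that setting also called far more than edgeR with the filter, as given in the section on processing choices.

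Heat and ER load also act through other stress programmes, given here beside the ATF4 genes. Of 15 genes of the ATF6 and XBP1 arms of the unfolded protein response, which raise ER folding capacity, 15 had a log2 fold change above 0 in HS against TN, with a median of 0.81. Of these, 10 had an unadjusted p under 0.05, edgeR called 0, and DESeq2 called 4. Over all genes, 49.3% lay above 0, 9.36% had such a p, and DESeq2 called 1.75% of those it tested. Without TN replicate 1, the cow with the low sum of hepatocyte markers, 15 of 15 again lay above 0, with a median of 0.63 and 7 unadjusted p under 0.05. *PDIA4*, an ER protein folding enzyme, had 88.7 ± 37.1 CPM in TN, 171.8 ± 32.1 in PF cows and 263.9 ± 55.5 in HS cows (log2 fold change 1.56, SE 0.38; edgeR, adjusted p = 0.290; DESeq2, adjusted p = 0.00161), where TN replicate 1 had 46.1 CPM and the other TN cows 106.5 and 113.5, and without that cow its log2 fold change was 1.26. *SDF2L1*, another ER chaperone partner, had 1.24 (SE 0.33; edgeR, adjusted p = 0.352; DESeq2, adjusted p = 0.0377), and 0.97 without TN replicate 1. In PF against TN, 15 of 15 also lay above 0 with a median of 0.63, 6 had an unadjusted p under 0.05, and DESeq2 called 1, and without TN replicate 1 the median was 0.45 with 2 unadjusted p under 0.05. In HS against PF, 13 of 15 lay above 0, with a median of 0.20 and 1 unadjusted p under 0.05. Over all genes, 48.8% lay above 0 in PF against TN, 6.88% had such a p, and DESeq2 called 0.555% of those it tested. In HS against PF, 50.9% of all genes lay above 0 and 5.31% had such a p.

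Of 10 targets of the heat shock factor HSF1, 10 had a log2 fold change above 0 in HS against TN, with a median of 1.39, 9 had an unadjusted p under 0.05, edgeR called 1 and DESeq2 called 6. Over all genes, 49.3% lay above 0, 9.36% had such a p, edgeR called 0.0892% and DESeq2 1.75%. Without TN replicate 1, 10 of 10 lay above 0 with a median of 1.14, 7 had an unadjusted p under 0.05 and edgeR called 0. That cow was the lowest TN cow for several of them, with 61.9 CPM of *HSPA1A*, an inducible HSP70 chosen after its values were seen, against 123.2 and 123.9 CPM in the other TN cows. The gene called by edgeR was *HSPH1*, a cytosolic HSP110 chaperone, which rose from 19.1 ± 4.25 CPM in TN to 56.9 ± 5.27 in HS cows (log2 fold change 1.56, SE 0.23; edgeR, adjusted p = 0.0879), while PF cows had 19.6 ± 6.84 CPM. The call was lost when any 1 of the 6 cows was left out. The log2 fold change of *HSPH1* then stayed between 1.41 and 1.71, with edgeR adjusted p of 0.110 to 0.246. With all 6 cows, DESeq2 gave an adjusted p of 1.8e-05. *HSPA6*, an inducible HSP70, had 0.592 ± 0.211 CPM in TN and 4.41 ± 0.533 in HS cows (log2 fold change 2.88, SE 0.47; edgeR, adjusted p = 0.114; DESeq2, adjusted p = 4.17e-05). In HS against PF the 10 targets had a median of 0.71, 6 had an unadjusted p under 0.05, and edgeR called 0 and DESeq2 called 3. Without PF replicate 2, edgeR called *HSPH1* here too (log2 fold change 1.85, adjusted p = 0.0550, against 1.53 and 0.127 with that cow). In PF against TN, 9 of the 10 lay above 0, with a median of 0.46, 1 had an unadjusted p under 0.05, and neither tool called any, and without TN replicate 1 it was 7 of the 10, with a median of 0.27. Over all genes, 5.31% had an unadjusted p under 0.05 in HS against PF, where DESeq2 called 0.771%. In PF against TN, 48.8% lay above 0 and 6.88% had such a p. The paper had already reported many genes of these lists as raised under heat stress. Among the HSF1 targets these were *HSPA1A*, *HSPH1*, *DNAJB1*, *HSPA6*, *HSPA8*, *HSP90AA1* and *HSPB1*. Among the ATF6 and XBP1 genes they were *HSPA5*, *HSP90B1*, *CALR*, *PDIA4* and *DNAJB9*. Counts over these lists are therefore not independent of its results. The difference between these lists and the ATF4 genes was not itself tested.

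**Figure D4:**
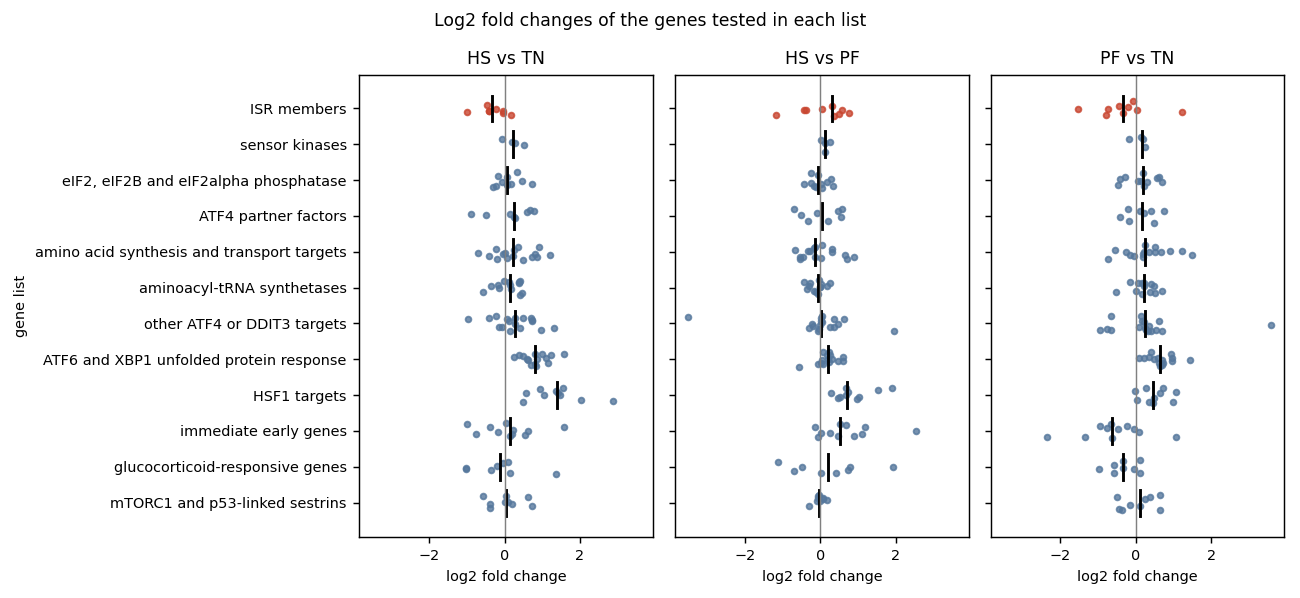
Log2 fold changes (edgeR) of every gene tested in each list, for the 3 comparisons; each point is a gene, the vertical bar is the median of the list, and the 9 integrated stress response genes are in red. In HS vs TN the medians are -0.32 for these genes, 0.81 for the ATF6 and XBP1 genes and 1.39 for the HSF1 targets.

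*ATF3*, *DDIT4* and *SESN2* also answer to other signals, and 3 further lists cover these. The 11 immediate early genes, which respond to growth factors and to tissue handling, summed to 195 to 272 CPM in TN, 132 to 197 in PF and 216 to 237 in HS cows. Their log2 fold changes had a median of -0.64 in PF against TN, with 9 of 11 below 0, and 0.52 in HS against PF, with 4 unadjusted p under 0.05, all higher in HS. Over all genes, 48.8% lay above 0 in PF against TN, and 5.31% had an unadjusted p under 0.05 in HS against PF. Without TN replicate 1, the median in PF against TN was -0.53, with 3 of 11 above 0, against 50.7% of all genes. In HS against TN the median was 0.15, *IER3*, an early response gene, had 0.63 (SE 0.25) and *MYC* -0.75 (SE 0.34), and edgeR called 0 in each comparison. PF replicates 1 and 3 had the 2 lowest sums of the 9 cows and PF replicate 2 lay just above TN replicate 3, and the part of this in the low PF values of *DDIT3*, *SESN2* and *DDIT4* was not tested.

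The 8 glucocorticoid-responsive genes summed to 2193 to 2458 CPM in TN, 1840 to 2817 in PF and 1451 to 2161 in HS cows, and edgeR called 0 of them in each comparison. *ERRFI1*, a feedback inhibitor of EGFR, had 309 ± 38.7 CPM in TN, 335 ± 55.3 in PF cows and 156 ± 33.5 in HS cows (HS against TN log2 fold change -1.01, SE 0.29; edgeR, adjusted p = 0.392; DESeq2, adjusted p = 0.0303). *SGK1*, a kinase of ion transport, had -1.03 in HS against TN (SE 0.30; edgeR, adjusted p = 0.394; DESeq2, adjusted p = 0.0823). The paper had already listed *SGK1* as lower in HS. DESeq2 called 3 of the 8 in HS against TN, 2 lower (*ERRFI1* and *SGK1*) and 1 higher, *FKBP5*, and 2 in HS against PF, *ERRFI1* lower and *FKBP5* higher. Of all genes it tested, DESeq2 called 1.75% in HS against TN and 0.771% in HS against PF. *FKBP5*, a co-chaperone of the glucocorticoid receptor and a standard target of it, was named after its values were seen. It had 7.78, 21.2 and 12.3 CPM in TN, 8.399, 12.9 and 6.37 CPM in PF, and 55.7, 23.7 and 26.6 CPM in HS replicates 1 to 3, so that every HS cow lay above every other cow. Its log2 fold change was 1.35 in HS against TN (SE 0.42; edgeR, adjusted p = 0.417; DESeq2, adjusted p = 0.0749) and 1.94 in HS against PF (SE 0.38; edgeR, adjusted p = 0.183; DESeq2, adjusted p = 0.000329). With single cows left out, the log2 fold change of *FKBP5* in HS against TN ranged from 0.86 (without HS replicate 1) to 1.81 (without TN replicate 2). In HS against PF it ranged from 1.43 (without HS replicate 1) to 2.26 (without PF replicate 2). Of 9 genes of mTORC1 signalling and the sestrins, edgeR and DESeq2 called 0 in each comparison. *TSC2*, an mTORC1 inhibitor, had -0.58 (SE 0.24; edgeR, adjusted p = 0.504) and *RHEB*, its activator, had 0.73 (SE 0.32; edgeR, adjusted p = 0.518) in HS against TN.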

How the data were processed

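RNA-seq of 9 liver biopsies was analysed, 3 cows each in the TN, PF and HS groups as labelled, and 0 columns of the table were left out. The deposited values are the authors' raw read counts per gene, without normalization. Per the labels and the study's methods, reads were cleaned with fastp 0.23.2, aligned to ARS-UCD1.2 with STAR 2.7.9a and counted with featureCounts 2.0.3. The annotation release and the strand and multi-mapping settings are not given in the sources used here. Of the 28786 symbols, 24366 were found in RefSeq ARS-UCD2.0, the members included, which served only to name overlapping genes.

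The groups were compared in pairs in R 4.3.3 with edgeR 4.0.16 (TMM, filterByExpr, quasi-likelihood F test; 6 libraries a fit), with p-values adjusted by Benjamini-Hochberg across every gene tested. The SE is the log2 fold change divided by the square root of F, and intervals are 95% intervals of the t distribution. Permutation tests used Python 3.11.15 with numpy 2.4.6. Libraries ranged from 16874444 to 22557047 counts; counting error alone was 2.16% of the value at the 2143 counts of *ATF4* and 44.7% at the 5 counts of *CHAC1*, their lowest. Poisson intervals cover counting error only.

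The alternatives were DESeq2 1.42.0, a blocked fit by replicate number, glmTreat, 1 fit over the 9 libraries, an FDR under 0.05, RLE size factors, library sizes without mitochondrial genes, no filter, a minimum of 10 counts per sample, a log2 offset of 2, and leaving out single cows. DESeq2 and edgeR without the filter, each without TN replicate 1, were added after the data were seen, as were the counts and medians of the lists without that cow. The pairwise fits of edgeR and DESeq2 were checked beforehand on simulated data, and the permutation test on random values with and without a relation. The tests of 3 groups, glmTreat and the blocked fit were not checked in this way. No libraries of a group agreed within sampling noise, so none was counted as a duplicate.

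The 9 members and the 17 further lists (163 genes) were chosen with earlier results of these data known. The genes named were the members, any gene of a list called by edgeR, the 2 genes of each list other than the marker lists with the smallest p in HS against TN, and the 10 genes most like *ATF4*. *MARS*, *FGF21*, *FKBP5*, *HSPA1A* and the marker genes named singly were added after their values were seen. *PCK1* and *TAT* were added for their weight in a sum. Further genes of the HSF1 and the ATF6 and XBP1 lists were named because the paper had reported them. No set test was run, and no sequences or gene positions are given.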

Additional observations from a re-analysis of the deposited data

How the results depend on the processing

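The call of *DDIT4* depended on the tool and the filter. In PF against TN, the number of members called was 0 with edgeR, 1 with DESeq2 and 1 with no filter on low counts, and in the test of 3 groups it was 0, 1 and 1 in the same order; the gene was *DDIT4* each time. Without TN replicate 1, an alternative chosen after seeing the data, DESeq2 and edgeR without the filter called 0 members in HS against TN, in PF against TN and among the 3 groups. Of all genes, they then called 197 and 272 among the 3 groups. The counts over all genes with every cow kept are not given for these 2 tests of 3 groups. In HS against TN and in HS against PF, 0 members were called under each of the 9 alternatives and with each cow left out. Leaving out cows 1 at a time moved the log2 fold changes across 0 for 7 values. These were, in HS against TN, *ATF3* (-0.26 to 0.17), *DDIT3* (-0.38 to 0.00203) and *SESN2* (-0.15 to 0.0859); in HS against PF, *PPP1R15A* (-0.45 to 0.39); and in PF against TN, *ATF4* (-0.36 to 0.16), *ASNS* (-0.0568 to 0.12) and *PPP1R15A* (-0.78 to 0.0618). No other alternative reversed a member's fold change. RLE size factors and library sizes without mitochondrial genes left 1 of 8, 6 of 9 and 2 of 9 members above 0 in the 3 comparisons, as with TMM, and 5 of 54 group means under other scalings moved by more than 1 SD, none by over 1.5 times.

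The r with *ATF4* ranged over left-out cows from -0.28 to 0.20 for *TRIB3*, from -0.40 to 0.0913 for *DDIT3*, from -0.64 to 0.62 for *CHAC1* and from -0.39 to 0.17 for *SESN2*. Over 7 cows it turned to -0.27 for *TRIB3*, -0.56 for *CHAC1* and 0.145 for *SESN2*, and over deviations from the group means to -0.0488 for *ASNS*.

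Over all genes, the counts called in HS against TN, HS against PF and PF against TN were 13, 4 and 0 with edgeR, 270, 122 and 91 with DESeq2, and 124, 98 and 136 without the filter. The DESeq2 counts equal those of the paper, which used that tool on these data, so its calls are not separate evidence. In HS against TN, edgeR called 4 with all 9 libraries in 1 fit, 2 with glmTreat and 0 at an FDR under 0.05. Over left-out cows the counts were 0 to 39, 5 to 10 and 0 to 14. In HS against TN, *HSPH1* was not among the genes called when any 1 of the 6 cows was left out, since 0 HSF1 targets were then called.

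Deviations of same-numbered cows of different groups had r from -0.22 to 0.24 over 9 pairs. Differently numbered cows had r from -0.31 to 0.30 over 18 pairs. With so few cows in a group, these r cannot tell whether the numbers pair the cows. The paper states that PF intake was matched to that of HS counterparts, and does not say whether the replicate numbers follow this matching. With the replicate block, 0 members were called in each comparison, and 33, 6 and 1 of all genes.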
